A study of Sus scrofa with 9 samples.

Results

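A set of 6 genes that mark fat cells and the lipid droplets inside them was chosen by name: CIDEC, PLIN1, LIPE, CFD, ADIPOQ and FABP4. The choice was made with earlier results of these data known. A gene was followed through every probe set (a group of array probes read as 1 value) that the array's gene annotation assigned to that gene alone. This gave 4 probe sets, 1 each for CIDEC, PLIN1, LIPE and CFD, among the 27558 on the array. ADIPOQ, the hormone adiponectin, and FABP4, the fatty acid carrier of fat cells, had no probe set named for them and were not analysed here. The samples came from the longissimus dorsi, the long back muscle, of 9 male finishing pigs, with 1 whole-transcript array per pig. The pigs started at about 95 kg and received for 5 weeks a diet deficient in lysine (pigs 1, 2 and 3), adequate in lysine (pigs 5, 6 and 7) or in excess of lysine (pigs 9, 10 and 11). Lysine is an essential amino acid that often limits growth in grain-based feed, and the comparisons asked how the muscle transcripts differed with its supply. Each pig is a separate animal, and the labels give neither breed nor age nor the fat content of the muscle.

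Fat cells store triglyceride in a single large droplet. Its surface carries PLIN1, perilipin 1, which guards the fat and releases it on hormonal command, and CIDEC, which lets droplets fuse and grow. LIPE, hormone-sensitive lipase, moves onto the droplet in that response and splits off fatty acids. CFD, complement factor D or adipsin, is a protease that fat cells secrete into the blood. In muscle these transcripts come largely from fat cells lying between the fibres, and are therefore often read as a gauge of intramuscular fat, although muscle fibres make LIPE too.

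All values are log2 expression values of the authors, and a difference of 1 is a 2-fold change if the base is 2, which was inferred from their range. In a bulk sample, fewer cells of a type and less RNA per cell cannot be told apart. The muscle label was checked first: the 8 measured muscle fibre markers, ACTA1 (skeletal actin) among them, all had mean values above at least 98.2% of probe sets. The array of excess pig 11 stood apart, with correlations of 0.904 to 0.956 with the other arrays, against 0.977 to 0.992 among those. Differences between deficient and excess pigs, and correlations, are therefore also given without this pig.

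The 4 genes had the same order of diet means: highest in deficient, intermediate in adequate and lowest in excess pigs. This order was found in 18.4% of all probe sets. An F test in limma for any difference among diets gave unadjusted p-values of 0.00105 for CFD, 0.00173 for CIDEC, 0.0102 for PLIN1 and 0.0309 for LIPE, with 2.54% of all probe sets below 0.05, and an adjusted p of 0.933 for each, with 0% called. Between the outer diets CIDEC was 1.98-fold, PLIN1 1.84-fold, CFD 1.60-fold and LIPE 1.49-fold higher in deficient than in excess pigs, and for each of them the 3 deficient pigs all lay above the 3 excess pigs. None of these differences passed an adjusted p of 0.05 over all probe sets.

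CIDEC had values of 6.12, 5.99 and 6.08 in deficient pigs 1, 2 and 3. The values in adequate pigs 5, 6 and 7 were 5.86, 5.49 and 5.13, and those in excess pigs 9, 10 and 11 were 5.22, 4.94 and 5.08. The deficient pigs lay close together and above every other pig, while the adequate group was wide and its pig 7 fell inside the excess range. The means were 6.06 ± 0.07, 5.50 ± 0.37 and 5.08 ± 0.14 (SD, n = 3 each). The excess mean lay close to 5.07, the middle value of the array's probe sets, with pig 10 under it, and the signal was not set against a background, so the folds of CIDEC are not exact.

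PLIN1, which coats the same droplets, was at 6.05, 6.14 and 6.50 in the deficient pigs, at 6.22, 5.79 and 5.38 in the adequate pigs and at 5.41, 5.36 and 5.28 in the excess pigs. Adequate pig 5 lay within the deficient range and pig 7 within the excess range, so the adequate group overlapped both. The means were 6.23 ± 0.24, 5.80 ± 0.42 and 5.35 ± 0.06 (SD, n = 3 each).

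LIPE, the lipase, was at 5.11, 5.09 and 5.69 in the deficient, 5.41, 5.09 and 5.09 in the adequate and 4.83, 4.79 and 4.54 in the excess pigs. Here the deficient and adequate groups overlapped and the excess pigs lay below both. Deficient pig 2 and adequate pigs 6 and 7 had exactly the same value, and 20.5% of all probe sets hold 1 value shared by 3 or more arrays. The means were 5.29 ± 0.34, 5.20 ± 0.19 and 4.72 ± 0.16 (SD, n = 3 each). All 3 excess values were under the array's middle value of 5.07, so the folds of LIPE are not exact either.

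CFD, the secreted protease, was at 8.21, 8.05 and 8.12 in the deficient pigs, at 8.08, 7.85 and 7.69 in the adequate pigs and at 7.53, 7.32 and 7.48 in the excess pigs. The excess pigs lay below all others, and adequate pig 5 alone entered the deficient range. The means were 8.12 ± 0.08, 7.87 ± 0.20 and 7.44 ± 0.11 (SD, n = 3 each).

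**Figure D1:**
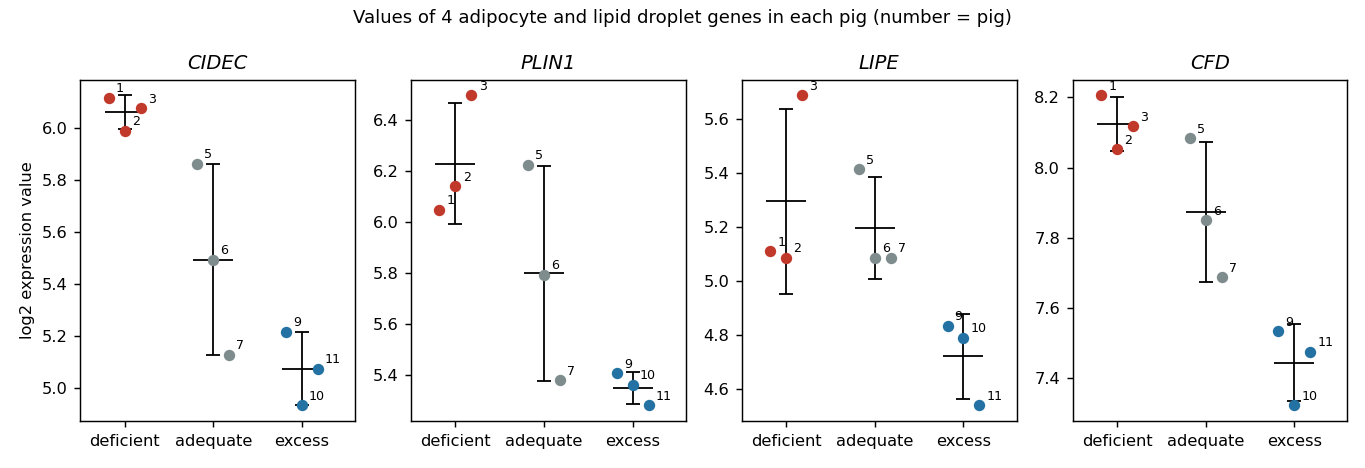
Log2 expression values of CIDEC, PLIN1, LIPE and CFD (vertical axes, a separate scale per gene) in the 9 pigs by diet; each point is 1 pig with its number, and bars give the mean and SD of 3 pigs. In every panel the 3 deficient pigs lie above the 3 excess pigs, and for CIDEC, PLIN1 and CFD adequate pig 5 lies near the deficient and pig 7 nearest to the excess pigs.

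In deficient against excess pigs the log2 difference was 0.98 ± 0.17 (SE) for CIDEC, 0.88 ± 0.21 for PLIN1, 0.68 ± 0.11 for CFD and 0.57 ± 0.18 for LIPE. Each exceeded the SD within either diet. Limma, a linear model fitted to all probe sets with a shared estimate of the spread, gave unadjusted p-values of 0.000340 for CFD, 0.000536 for CIDEC, 0.00328 for PLIN1 and 0.0144 for LIPE. After Benjamini-Hochberg adjustment over all 27558 probe sets the adjusted p of each of the 4 genes was 0.872, and the smallest of any probe set 0.117. Thus 0 genes were called, as were 0% of all probe sets. At an unadjusted p below 0.05 all 4 genes were higher in the deficient pigs, against 2.84% of all probe sets (50% were higher at any p), and 4.28% of probe sets had all deficient pigs above all excess pigs. The 4 genes were chosen with earlier results of these data known, and they varied together (r of 0.75 to 0.97 over the 9 pigs). They are therefore neither an unbiased set nor 4 separate findings. The count of 4 stayed at 4 when any 1 pig was left out, and was 2 with array quality weights, which were 0.68, 0.19 and 0.22 for the excess pigs and at least 0.90 for the others. The median difference of the 4 genes was 0.78, against 0.000112 for all probe sets.

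Without excess pig 11 these differences were 0.98 for CIDEC, 0.85 for PLIN1, 0.70 for CFD and 0.48 for LIPE. LIPE depended most on a single animal: its difference was 0.38 without deficient pig 3, whose value was the highest.

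**Figure D2:**
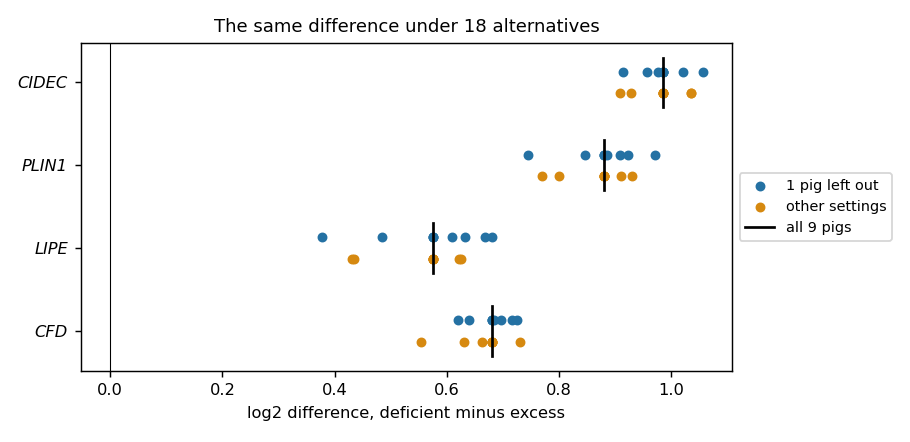
Log2 difference between deficient and excess pigs (horizontal axis) of the 4 genes with 1 pig left out (blue), under other settings (orange) and with all 9 pigs (black line). All values lie above 0, from 0.38 for LIPE without deficient pig 3 to 1.06 for CIDEC without excess pig 9.

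In deficient against adequate pigs the 4 differences were smaller, and all of them positive. CIDEC was 1.48-fold higher in deficient pigs (log2 difference 0.57 ± 0.17, SE) and its pigs did not overlap. PLIN1 was 1.35-fold higher (0.43 ± 0.21), CFD 1.19-fold (0.25 ± 0.11) and LIPE 1.07-fold (0.10 ± 0.18), with overlap in each. The 95% interval for LIPE ran from -0.32 to 0.52, and the sign of its difference turned without deficient pig 3 (-0.10). The adjusted p of limma was 1 for each of the 4 genes, and 0% of probe sets were called. CIDEC alone had an unadjusted p below 0.05 (0.0121 in limma), as did 0.842% of all probe sets in the higher direction (52.9% were higher at any p), and 3.77% had all deficient above all adequate pigs. Without adequate pig 7 the differences were smaller, at 0.38 for CIDEC, 0.22 for PLIN1 and 0.16 for CFD, and without adequate pig 5 they were larger, at 0.75, 0.64 and 0.36, so that 3 of the 4 genes had an unadjusted p below 0.05 in limma. The difference of LIPE, close to 0, lay between -0.10 and 0.21 when 1 pig was left out.

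Excess pigs lay below adequate pigs by similar amounts in all 4 genes. LIPE was 1.39-fold lower (log2 difference -0.48 ± 0.18, SE), PLIN1 1.37-fold lower (-0.45 ± 0.21), CFD 1.35-fold lower (-0.43 ± 0.11) and CIDEC 1.34-fold lower (-0.42 ± 0.17). LIPE and CFD did not overlap between these diets, as was the case for 3.84% of all probe sets in that direction. The adjusted p of limma was 0.757 for each, with 0% of probe sets called. CFD, LIPE and CIDEC had unadjusted p-values of 0.00523, 0.0326 and 0.0433 in limma, and 2.21% of all probe sets were lower at p below 0.05 and 49.8% at any p. That count of 3 genes was 1 without adequate pig 5, without excess pig 10 or without excess pig 11, 2 without deficient pig 1, 2 or 3 or adequate pig 6, and 4 without adequate pig 7. It was 2 after quantile normalization was applied again or with only the 6 arrays compared. Without moderation, or with array SD as a covariate, it was 1, and with array quality weights 0. Without adequate pig 5 CIDEC differed by -0.24 and PLIN1 by -0.24, and LIPE differed by -0.30 in a fit with array SD as a covariate. Both comparisons use the same adequate pigs, and the wide spread of that group enters both.

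**Figure D3:**
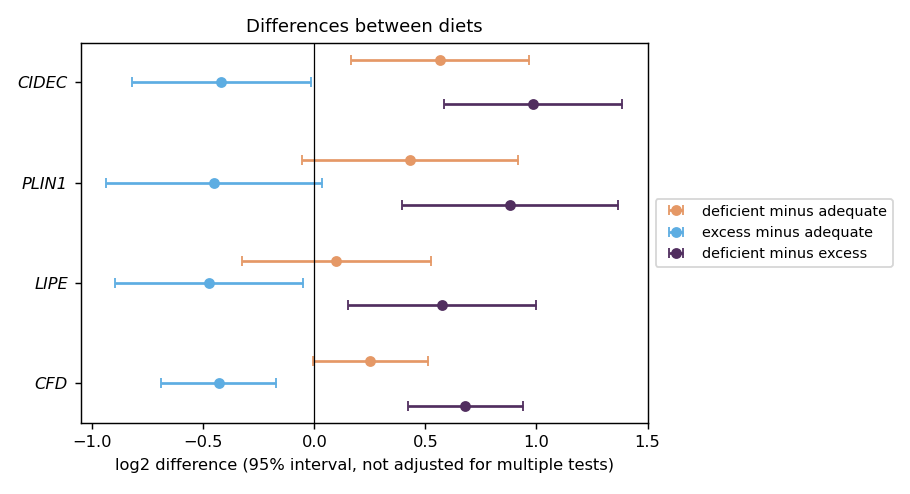
Log2 differences (points) with 95% intervals from limma, not adjusted for multiple tests, for CIDEC, PLIN1, LIPE and CFD in the 3 comparisons of diets. Deficient minus excess lies furthest from 0, at 0.98 for CIDEC, and all 4 intervals of excess minus adequate centre between -0.48 and -0.42.

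The 4 genes also varied together over the 9 pigs, with the difference between diets included. The tests over the 9 pigs, for these pairs and those with LIPE, permuted pigs regardless of diet. They therefore do not separate the shared diet order from variation within diets. With pigs permuted only within diets, the adjusted exact permutation p-values were 0.0556 (CIDEC with CFD) to 0.435 (LIPE with CFD). Over the 9 pigs CIDEC and CFD had a Pearson r of 0.97 and a Spearman rho of 0.97 (exact permutation p = 0.000165 for both, adjusted over the 6 pairs 0.000496 and 0.000992). CIDEC and PLIN1 had an r of 0.94 and a rho of 0.87 (exact permutation p = 0.00141 and 0.00451, adjusted 0.00282 and 0.00541), and PLIN1 and CFD an r of 0.91 and a rho of 0.87 (exact permutation p = 0.00210 and 0.00451, adjusted 0.00315 and 0.00541). These are the genes of droplet growth, droplet coat and secretion, and adequate pigs 5, 6 and 7 spread along the same line as the diets. In the other diets PLIN1 had its own order. From high to low the deficient pigs were 1, 3 and 2 for CIDEC and CFD but 3, 2 and 1 for PLIN1. The excess pigs were 9, 11 and 10 for CIDEC and CFD but 9, 10 and 11 for PLIN1.

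LIPE followed PLIN1 with an r of 0.88 and a rho of 0.92 (exact permutation p = 0.000132 and 0.00132, adjusted 0.000496 and 0.00265). Its r with CFD was 0.78 and rho 0.92 (exact permutation p = 0.0100 and 0.00132, adjusted 0.0120 and 0.00265), and with CIDEC 0.75 and 0.83 (exact permutation p = 0.0165 and 0.00764, adjusted 0.0165 and 0.00764). Without the 2 pigs farthest from the median of the first gene, r ranged from 0.73 for CIDEC with LIPE to 0.97 for CIDEC with PLIN1. Without excess pig 11 it ranged from 0.71 to 0.96 over the same 6 pairs.

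These correlations include the difference between diets. With the diet means removed, r was 0.97 for CIDEC with CFD, 0.81 for CIDEC with PLIN1, 0.77 for PLIN1 with LIPE, 0.68 for PLIN1 with CFD, 0.41 for CIDEC with LIPE and 0.31 for LIPE with CFD. Permuting pigs within diets allows 216 arrangements. CIDEC with CFD had an exact permutation p of 0.00926 in this test and PLIN1 with LIPE one of 0.0278, but after adjustment over the 6 pairs the exact permutation p-values were 0.0556 and 0.0833, and those of the others 0.278 to 0.435. No pair passed 0.05 after adjustment in this test within diets.

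**Figure D4:**
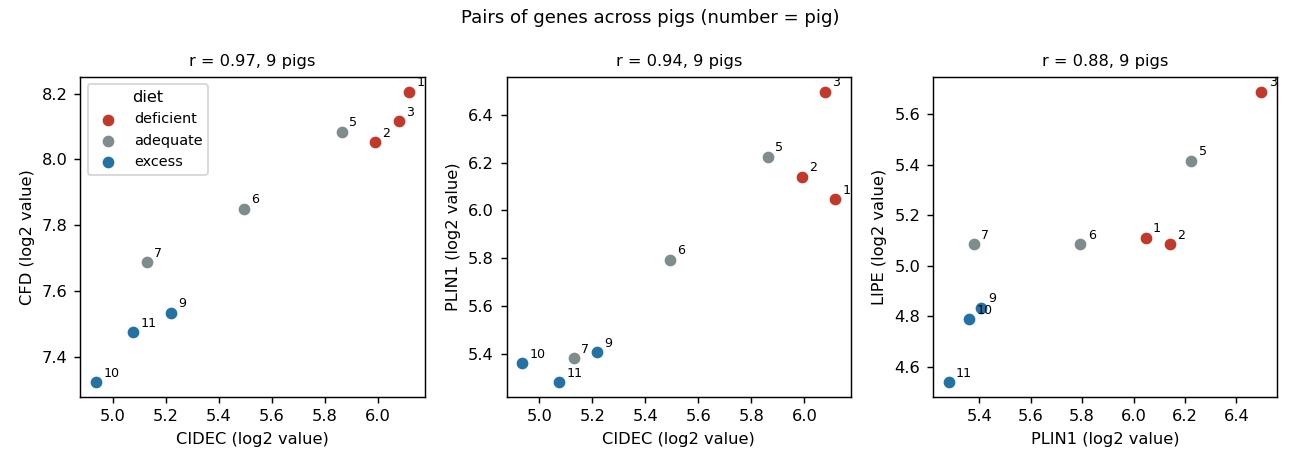
Log2 values of CIDEC against CFD, CIDEC against PLIN1 and PLIN1 against LIPE in the 9 pigs, coloured by diet and numbered by pig, with Pearson's r above each panel (0.97, 0.94 and 0.88). Excess pigs lie at the lower left and deficient pigs to the upper right, and the adequate pigs lie between and beside them.

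Other genes were compared with the mean of the 4 genes, each scaled to the same spread. Among 7320 probe sets with 1 symbol and a mean at or above the median, the 10 genes most alike over the 9 pigs had an r of 0.90 to 0.94. They were CSNK1A1 (0.94), ASPH (0.94), PLCB1 (0.93), SERP1 (0.93), DNAJA1 (0.93), SCD (0.92), TRA2A (0.92), DAAM1 (0.92), CHORDC1 (0.90) and TXNRD1 (0.90). The points share the array of each pig: the median r of the compared probe sets was 0.33, and 0.08 without excess pig 11, and their 95th percentile was 0.73 and 0.70. Without excess pig 11 the r of the 10 genes was 0.87 to 0.96. With the diet means removed, the compared probe sets had a median r of 0.25 and a 95th percentile of 0.76. CSNK1A1 (0.95), DAAM1 (0.88), ASPH (0.84), PLCB1 (0.81) and TRA2A (0.79) lay above that percentile, and SCD (0.71), TXNRD1 (0.70), SERP1 (0.61), DNAJA1 (0.57) and CHORDC1 (0.37) below it. The 10 genes were picked by their r over these same pigs, which includes the part within diets. Their place against that percentile is therefore not an independent check. SCD, which makes monounsaturated fatty acids, is the one gene of fat synthesis among the 10.

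Other genes of fat cells and fat handling were taken from lists of textbook genes. These lists were chosen with earlier results of these data known, so their counts are not independent support. In deficient against excess pigs 0 genes of any list passed an adjusted p of 0.05 in limma. Of 11 measured genes of fat synthesis 9 were higher and 2 lower (median 0.26), with 5 at an unadjusted p below 0.05, all of them higher. The 2 lower genes were GPAM, with a log2 difference of -0.48, and AGPAT2, with -0.32. Their differences were -0.66 and -0.32 without excess pig 11. Of all probe sets 50% were higher in deficient than in excess pigs, 2.84% at an unadjusted p below 0.05 in limma, and 4.28% were higher without overlap. The same shares hold for the other lists in this comparison. SCD was 5.15-fold, DGAT2, which makes triglyceride, 2.81-fold, THRSP, a regulator of fat synthesis, 2.62-fold and ME1, which supplies NADPH, 1.84-fold higher, with no overlap between these diets. ACLY, which makes cytosolic acetyl-CoA, was 2.05-fold higher, with overlap. The excess mean of DGAT2, 5.03, was under the array's middle value, so its fold is not exact. When excess pig 11 was left out the split was again 9 higher and 2 lower (median 0.20), with 4 genes at an unadjusted p below 0.05, and ACLY was 1.68-fold higher.

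Among 11 genes of adipocyte identity and adipokines 10 were higher and 1 lower in deficient than in excess pigs (median 0.14), and 0 reached an unadjusted p of 0.05 in limma. Of these 11 genes 6 had all 3 diet means under the array's middle value of 5.07, and 5 of the 10 that were higher were among them. The split was 8 higher and 3 lower when excess pig 11 was left out (median 0.06). PPARG, the master regulator of fat cell formation, was at 6.60, 6.47 and 6.63 in the deficient pigs, at 6.96, 6.49 and 5.78 in the adequate pigs and at 6.14, 5.65 and 6.18 in the excess pigs. Deficient and excess pigs did not overlap, and the adequate pigs spanned nearly the whole range, with pig 5 high and pig 7 low. Its log2 difference of deficient minus excess was 0.58 ± 0.28 (SE), and 0.68 without excess pig 11. NAMPT, an enzyme of NAD synthesis, differed by 0.53 ± 0.24, and by 0.29 without that pig. LEP, the hormone leptin, had means of 4.47, 4.39 and 4.37 in deficient, adequate and excess pigs, and CEBPA, another regulator of fat cell formation, 4.99, 4.94 and 4.93. Both are among the 6 genes under the middle value.

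Lipid droplet proteins also occur in cells other than fat cells, muscle fibres among them. Of 9 measured droplet and lipolysis genes 6 were higher and 3 lower in deficient than in excess pigs (median 0.17), and 0 reached an unadjusted p of 0.05 in limma. PLIN2, the coat of small droplets in many cell types, differed by 0.17 ± 0.23 (SE), PLIN4 by -0.08 ± 0.21 and PNPLA2, the first lipase of triglyceride breakdown, by -0.04 ± 0.19. Their r with the mean of the 4 genes over the 9 pigs was 0.31, -0.05 and 0.04, and 0.0071, -0.12 and -0.29 without excess pig 11. G0S2, an inhibitor of that lipase, differed by 0.38 ± 0.20 and had an r of 0.69 (0.23 and 0.58 without that pig), and ABHD5, its activator, differed by 0.30 ± 0.15 (0.23). This list split into 4 higher and 5 lower without excess pig 11 (median -0.03), with PLIN2 at -0.03 and PNPLA2 at -0.22. In excess against adequate pigs G0S2 was the one gene of this list at an unadjusted p below 0.05 in limma (log2 difference -0.49 ± 0.20). Its values in excess pigs 9, 10 and 11 were 7.16, 6.69 and 6.47. For this list that comparison was not repeated without excess pig 11, which had the lowest value.

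Among 11 genes of fatty acid uptake and glycerol handling 8 were higher and 3 lower in deficient than in excess pigs (median 0.06). LPL, the lipase that draws fatty acids from blood fat, differed by 0.27 ± 0.22 (SE) and CD36, a fatty acid transporter, by 0.10 ± 0.12. Leaving out excess pig 11 gave 0.11 and -0.03, with 6 genes of the list higher and 5 lower (median 0.0098). PCK2, the mitochondrial phosphoenolpyruvate carboxykinase, was the one gene of this list at an unadjusted p below 0.05, with a difference of 0.71 ± 0.18 (0.76 without that pig). Its 3 excess values were under the array's middle value, so this difference is not exact. All 5 measured genes of adiponectin receptors and signalling were higher (median 0.06), ADIPOR1 by 0.12 ± 0.14 and ADIPOR2 by 0.06 ± 0.15. A second probe set of ADIPOR2, with a lower mean, differed by 0.24 ± 0.18. Without excess pig 11 only 1 of the 5 genes was higher and 4 were lower (median -0.08).

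**Figure D5:**
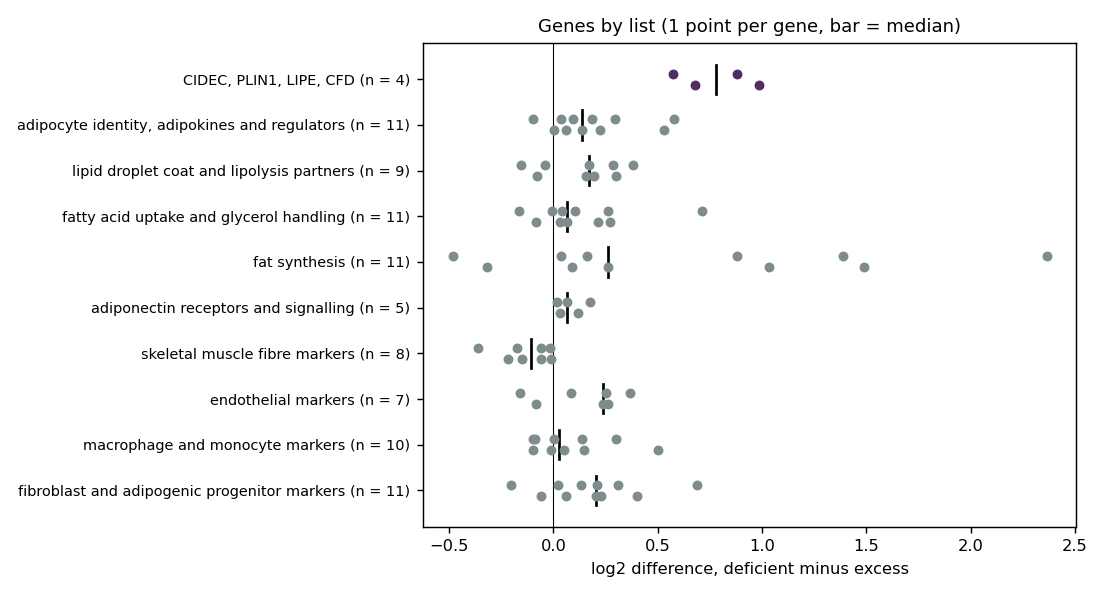
Log2 difference between deficient and excess pigs (horizontal axis) for each gene of the lists, 1 point per gene, with the median as a bar; the top row holds CIDEC, PLIN1, LIPE and CFD. The 4 genes lie between 0.57 and 0.98, and the list medians between -0.11 for muscle fibre markers and 0.26 for fat synthesis.

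Markers of other cell types in the muscle were read beside these values. All 8 muscle fibre markers were lower in deficient than in excess pigs (median -0.11), against 50% of all probe sets. The mean log2 level over the list was 12.62 to 12.63 in deficient, 12.59 to 12.67 in adequate and 12.68 to 12.79 in excess pigs. MYL2, a slow myosin light chain, was the one marker of this list at an unadjusted p below 0.05 in limma, at -0.36 ± 0.11 (SE) and without overlap. Of all probe sets 1.23% were lower at that p and 2.19% were lower without overlap. The slow fibre genes MYH7 and TNNC1 differed by -0.22 ± 0.14 and -0.18 ± 0.11, and ATP2A1, TNNC2, MYLPF and PYGM by -0.01 to -0.06. All 8 were also lower without excess pig 11 (median -0.06, MYL2 -0.32). Of 7 endothelial markers 5 were higher (median 0.24), and their mean level ran from 6.63 to 6.89 in deficient, 6.57 to 6.87 in adequate and 6.39 to 7.03 in excess pigs. Of 10 macrophage markers 6 were higher (median 0.03), with mean levels of 5.31 to 5.74, 5.55 to 5.58 and 5.15 to 5.64 in the same order. Of these 10 markers 5 had all 3 diet means under the array's middle value of 5.07, and 2 of the 6 that were higher were among them. Endothelial and macrophage levels overlapped among the 3 diets. Leaving out excess pig 11 left 5 of 7 endothelial markers (median 0.06) and 8 of 10 macrophage markers (median 0.08) higher in deficient pigs.

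Of 11 fibroblast and progenitor markers 9 were higher in deficient than in excess pigs (median 0.20), with mean levels of 8.39 to 8.84 in deficient, 8.85 to 9.16 in adequate and 8.03 to 8.82 in excess pigs. This became 5 higher and 6 lower when excess pig 11 was left out (median -0.01). Against adequate pigs all 11 were lower in both deficient (median -0.38) and excess pigs (median -0.47). Of all probe sets 47% were lower in deficient and 49.8% in excess than in adequate pigs. With all pigs the highest diet of these markers was therefore adequate, whereas that of CIDEC, PLIN1, LIPE and CFD was deficient. For this list excess against adequate was not repeated without excess pig 11, which had the lowest mean level (8.03). The part of these cell types in the values of the 4 genes was not tested.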

How the data were processed

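The deposited table holds the authors' processed log2 values of 27558 probe sets on 9 arrays, 1 per pig, with no value missing; the log base is inferred from their range (3.10 to 14.3). Per the labels' protocols, total RNA from frozen muscle was amplified to sense-strand cDNA and biotin labelled. The submitters' processing notes list GCOS 1.2 and Partek; how the signals were corrected, summarised and normalised is not stated. Genes came from the platform annotation, updated through Entrez IDs (12925 of 13323 probe sets with 1 symbol matched). Values were used as deposited. Limma 3.58.1 in R 4.3.3 fitted 1 mean per diet to all 9 arrays, two-sided, with Benjamini-Hochberg adjustment over all probe sets, and was tested on simulated data. No control probe sets were identified, so all entered the fit. Signal over background was not measured, and 3 arrays per diet limit the precision. For genes with several probe sets that with the highest mean was used.

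Pairs of genes were tested with exact two-sided permutation of pigs. The plan counted 15 pairs of 6 genes; 4 genes, so 6 pairs, were measured. Genes named outside the 4 were taken from the 3 smallest p-values of each list in a comparison, a planned set of key genes and the 10 most alike; not every gene this rule allows is described. ACLY, GPAM, AGPAT2, TNNC2 and PYGM were named after their values were seen, and the lists without excess pig 11 were added then. The genes and lists were chosen with earlier results of these data known. Alternatives covered normalization, variance model, array weights and spread, filters and leaving out each pig.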

Additional observations from a re-analysis of the deposited data

How the results depend on the processing

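Over 18 alternatives the 4 genes together gave 72 values in each comparison. All 72 kept their direction in deficient against excess and in excess against adequate pigs, as did 71 of 72 in deficient against adequate pigs. The exception was LIPE, whose difference in that comparison ran from -0.10 without deficient pig 3 to 0.21 without adequate pig 5. No alternative called any of the 4 genes, whose lowest adjusted p in limma was 0.264 (CFD, excess against adequate, without excess pig 9). The count of all probe sets called, 0 in every comparison, became 1 with array quality weights in deficient against adequate pigs and in the test of any diet difference (F test), 1 without moderation in excess against adequate pigs, in deficient against excess pigs and in the F test, and 1 with only probe sets of 1 symbol in deficient against excess pigs. With all pigs the F test called 0, with 700 at an unadjusted p below 0.05. The counts at an unadjusted p below 0.05 in the 3 comparisons (deficient against adequate, excess against adequate, deficient against excess) were 511, 981 and 1124; with array quality weights they were 2207, 272 and 456, and without excess pig 9 they were 574, 4638 and 3969. Of the 4 genes, array quality weights left 2, 0 and 2 at an unadjusted p below 0.05 in the 3 comparisons. The median r over the 6 pairs was 0.89, and 0.82 after quantile normalization was applied again and 0.72 with the diet means removed; leaving out 1 pig gave from 0.87 to 0.93. Averaging probe sets per gene was not run, since each gene had 1. No paired analysis was run, since the labels name no pairs or blocks of pigs. Values near or under the array's middle value limit the folds of LIPE and, in excess pigs, of CIDEC. Leaving excess pig 11 out of the gene lists was chosen after seeing the data. The causes of these changes were not tested.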
